A study of Mus musculus with 4 samples.

Results

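Of the 28193 genes in the count table, 2156 were long noncoding RNA (lncRNA) genes that lie antisense to a protein-coding gene. A gene was a member when its biotype was lncRNA, its span overlapped a protein-coding gene on the opposite strand and it overlapped no protein-coding gene on its own strand, and 14 well-studied lncRNAs of the table, such as Malat1, Neat1 and Meg3, were left out by name. Members were therefore 2156 of 4494 lncRNA genes. They faced 1914 different coding partners, where the partner was the opposite-strand coding gene with the longest overlap. These rules used no expression value, although the members were chosen with earlier results of these data known.

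Transcripts antisense to a coding gene are common in mammalian genomes. Some start beside the promoter of the coding gene and run the other way, some meet it at the 3′ end and others lie wholly inside its introns. A small number are known to act on the gene they face, through chromatin, splicing or RNA stability, some are hosts of microRNAs, and most have no known function. Many lncRNAs stay in the nucleus, so that their presence in RNA bound to ribosomes cannot be assumed.

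The libraries came from fosTRAP-seq, which pulls down HA-tagged ribosomes from neurons that expressed Fos while 4-hydroxytamoxifen was present, and sequences their RNA. The labels give male mice of genotype cFos-Cre:Ribotag and dorsal hippocampus, and the study's methods describe C57BL/6J males of 3 to 5 months with AAVs for a Fos-driven, tamoxifen-inducible Cre and a Cre-dependent HA-tagged Rpl22 in CA1, so the tag also reaches any Fos-expressing cell that the viruses infect. All mice were sleep deprived for 5 h at a first bout, when the neurons were tagged, and a week later they were either deprived again for 5 h (SD) or left undisturbed (NSD). Each library pooled CA1 tissue of 5 mice, collected at ZT5, and each group had 2 libraries, named NSD 1, NSD 2, SD 1 and SD 2 below. The tagged neurons of both groups had therefore lived through the first deprivation.

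The libraries held 153511705 to 195910235 estimated counts. Markers of CA1 pyramidal neurons summed to 5527 to 6067 CPM (counts scaled to 1000000 per library), against 719 to 810 CPM for interneuron markers, 365 to 405 CPM for astrocyte markers and 1403 to 1694 CPM for oligodendrocyte markers. Of these 4 lists 0 genes passed the main edgeR test between SD and NSD, while 3 of the 6 CA1 markers were lower at an unadjusted p under 0.05, as were 3 with the batch number as a block and 3 by DESeq2. The other 3 lists gave at most 1 call each under either. Markers of dentate granule cells, CA3 and microglia summed to under 100 CPM each in every library. All 6 endothelial markers had lower fitted values in SD, and their median was -0.86 on the log2 scale. Of these 0 passed the main edgeR test, 5 had an unadjusted p under 0.05, 5 passed with the block and 4 by DESeq2. Their summed level was 37.0 and 51.3 CPM in NSD and 30.3 and 20.1 CPM in SD. A list of 8 RNAs known from the nucleus, which holds several of the lncRNAs left out by name, summed to 6381 and 4235 CPM in NSD and to 3293 and 2419 CPM in SD, and 5 of its 8 genes were called lower. In such pull-downs from pooled tissue, fewer cells of a type and less RNA per cell cannot be told apart. No input library was among the samples, so how much RNA came from outside tagged ribosomes was not measured.

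Where a member starts and ends on its partner gave 4 arrangements. The largest held 1081 members that lie inside the span of their partner. A further 625 overlapped the 5′ end of the partner (head to head), 384 overlapped its 3′ end (tail to tail) and 66 spanned it. In 1535 members at least 1 exon base faced a coding exon, 587 had no exon base opposite a coding exon, and 34 were not found by gene ID in the annotation used for exons. Of the members inside a partner, 486 had all their exons opposite introns, and these are called intronic members here.

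The 3 intronic members of highest level among those called lower in SD, and the head to head member of highest level whose printed window holds no coding exon base, show what the starts of these genes look like. Each sequence runs from 100 bases before the annotated start to 50 bases into the gene on the strand of the member, in GRCm39, with CG pairs in capitals. They are Gm48239 in Cadps (chr14:10095129-10095278, minus strand), C630031E19Rik in Myt1l (chr12:29736395-29736544, minus strand), 4921534H16Rik in Clstn2 (chr9:97885373-97885522, plus strand) and Gm26782 at Tep1 (chr14:51107681-51107830, plus strand).
Gm48239: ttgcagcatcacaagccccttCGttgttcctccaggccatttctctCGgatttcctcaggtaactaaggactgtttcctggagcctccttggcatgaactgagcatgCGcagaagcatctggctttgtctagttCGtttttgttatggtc
C630031E19Rik: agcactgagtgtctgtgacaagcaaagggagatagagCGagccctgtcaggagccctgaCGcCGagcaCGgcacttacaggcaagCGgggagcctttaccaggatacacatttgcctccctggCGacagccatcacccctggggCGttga
4921534H16Rik: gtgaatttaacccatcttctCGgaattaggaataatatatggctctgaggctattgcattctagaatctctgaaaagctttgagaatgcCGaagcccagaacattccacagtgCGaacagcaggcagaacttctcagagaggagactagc
Gm26782: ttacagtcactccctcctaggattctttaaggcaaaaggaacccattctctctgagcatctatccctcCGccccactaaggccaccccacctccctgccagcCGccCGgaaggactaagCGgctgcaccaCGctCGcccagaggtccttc
These starts held 4, 7, 3 and 6 CG pairs respectively.

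Over the wider window from 250 bases before to 50 bases into the gene, members inside a partner had a median of 5 CG pairs and a GC content of 49.3%. Head to head members had a median of 14 CG pairs and 58.0% GC, which is the GC content of the same window in the 16973 coding genes, whose median was 16 CG pairs. The GC box GGGCGG, searched on both strands, was present in 14.2% of windows of members inside a partner, 40.8% of head to head windows, 39.8% of tail to tail windows and 52.9% of coding windows. The TATA box letters TATAAA were present in 11.7% of windows of members inside a partner, 4.80% of head to head windows and 8.88% of coding windows. The cAMP response element TGACGTCA, the sequence read by CREB family factors, was found in 1.11% of all member windows and 2.80% of coding windows. The AP-1 letters TGACTCA, which on both strands also take in TGAGTCA, the sequence read by Fos and Jun dimers, were found in 5.52% of member windows and 3.91% of coding windows.

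Most members were rare. Of the 2156, 1322 had more than 5 counts in every library and were tested, and 977 of these averaged under 1 CPM while 27 averaged over 10 CPM. The 834 that were not tested had a median of 0.0402 CPM, and 77 of them were at 0 in both SD libraries against 10 at 0 in both NSD libraries. Members took 0.303% and 0.264% of all counts in NSD 1 and NSD 2, and 0.260% and 0.235% in SD 1 and SD 2. Per kilobase of exon, the median tested member stood at 4.45% of the level of its partner, over 1310 pairs with exon lengths for both genes, and 113 members stood above their partner.

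In SD, most members had lower fitted values than in NSD, while most of their coding partners did not. The summed level of all members overlapped between the groups, at 2975 and 2581 CPM in NSD and 2615 and 2434 CPM in SD. The edgeR test called 41 of the 1322 tested members lower (3.10%) and 1 higher, against 2.33% of all 22338 genes tested called lower and 0.77% called higher. The median log2 fold change of members was -0.42, against -0.02 over all genes, and 1000 of the 1322 lay below 0. The 2 SD libraries lay under the 2 NSD libraries, without overlap, for 48.6% of tested members, against 27.5% of all genes, and above them for 8.85% of members, against 22.0% of all genes. With the batch number as a block, 192 members were called lower and 6 higher, against 8.47% and 2.99% of all genes. The calls moved with single libraries, and without NSD 1 only Gm48239, 4921534H16Rik and A330023F24Rik kept theirs. The share of members called lower was then no larger than that of all genes, and without NSD 2 it was close to it. The median log2 fold change of members was -0.28 without NSD 1 and -0.5 without NSD 2, against 0.0 and -0.01 over all genes. Without SD 1 it was -0.52 and without SD 2 -0.36, against -0.02 and -0.01. The number called also rested on the filter, since 2 were called lower by edgeR without a minimum count and 0 with filterByExpr. With filterByExpr 323 were lower at an unadjusted p under 0.05. DESeq2 called 127 under the filter used here, beside 1294 of all 22338 genes.

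The size of the difference went with where the member lies on its partner. Among the 195 intronic members tested, 20 were called lower and the median log2 fold change was -1.38. The 365 members inside a partner with exon bases opposite its exons or those of another coding gene had 15 called lower and a median of -0.56. The 276 tail to tail members had 4 called lower and a median of -0.36, the 437 head to head members 2 called lower and a median of -0.17, and the 45 spanning members 0 called lower by edgeR (4 at an unadjusted p under 0.05, 1 by DESeq2 and 1 with the block) and a median of -0.14. When single libraries were left out, the median of intronic members ran from -1.69 to -1.0 and that of head to head members from -0.24 to -0.09. The number of intronic members called lower was less steady, since it fell without NSD 1 or NSD 2 and rose without SD 1 or SD 2. The SD libraries lay under the NSD libraries without overlap for 76.9% of intronic members and 34.3% of head to head members, against 27.5% of all genes. Of the intronic members 10.3% and of the head to head members 0.458% were thus called lower, against 2.33% of all genes. With the block, 79 of the intronic (40.5%) and 14 of the head to head members (3.20%) were called lower, against 8.47% of all genes.

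**Figure D1:**
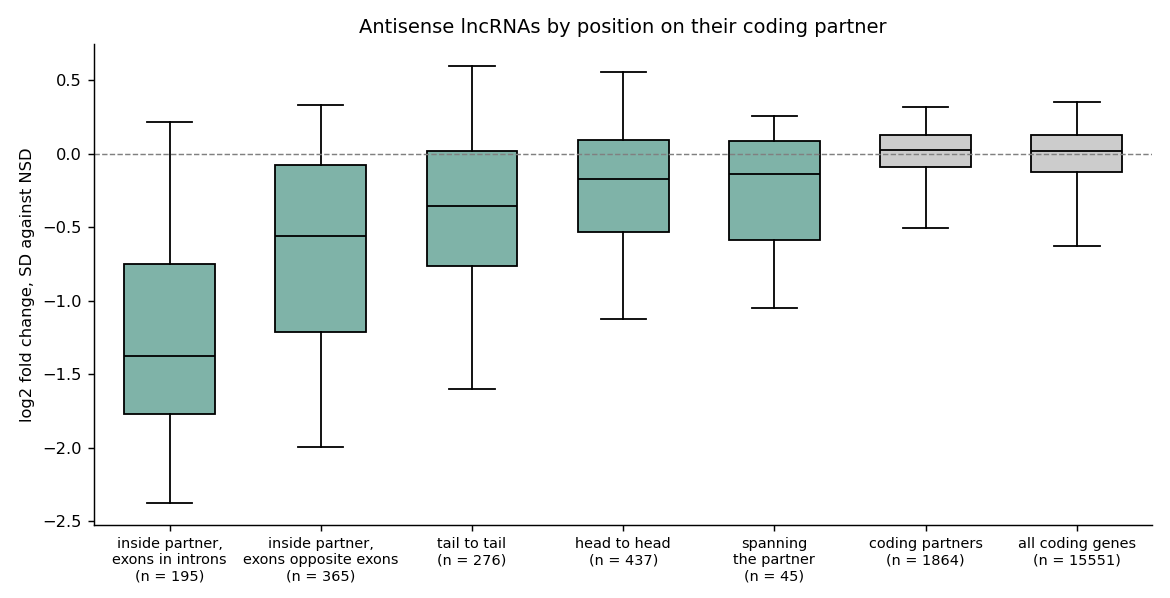
Log2 fold change of SD against NSD (vertical axis) for tested members by position on the partner (green) and for coding genes (grey). Boxes span the quartiles with the median as a line and whiskers reach the 5th and 95th percentiles, n is the number of genes. Medians run from -1.38 for intronic members to -0.14 for members that span the partner, with coding partners at 0.03.

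The difference between intronic and head to head members was present at each level of expression. When all tested members were split into quartiles by mean CPM, the medians of intronic members were -0.99, -1.55, -1.51 and -1.49 from the lowest to the highest quartile, and those of head to head members were -0.24, -0.23, -0.27 and -0.07. The highest quartile held only 19 intronic members. Partners of intronic members were long, with a median span of 166 kb against 31.2 kb for partners of head to head members, and the starts of the intronic members lay a median of 66.9 kb from the start of the partner against 0.744 kb. Across the 195 intronic members, the level per kilobase of exon followed that of the partner with a Spearman rho of 0.39, against 0.22 across 435 head to head members. These genes share the same 4 libraries and are not independent replicates.

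Summed over all members of a class, the level of intronic members in SD was also the lowest against NSD among these 5 classes. The 486 intronic members together held 194 CPM in NSD 1, 142 CPM in NSD 2, 98.9 CPM in SD 1 and 70.9 CPM in SD 2. Both SD libraries were thus below both NSD libraries, and the NSD libraries stood at 115% and 84.6% of their mean against 58.8% and 42.1% for the SD libraries. The 625 head to head members held 764, 732, 725 and 686 CPM in the same order, so SD 1 and NSD 2 lay close to each other. The coding partners summed to 103% and 97.3% of the NSD mean in NSD and to 102% and 106% in SD.

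**Figure D2:**
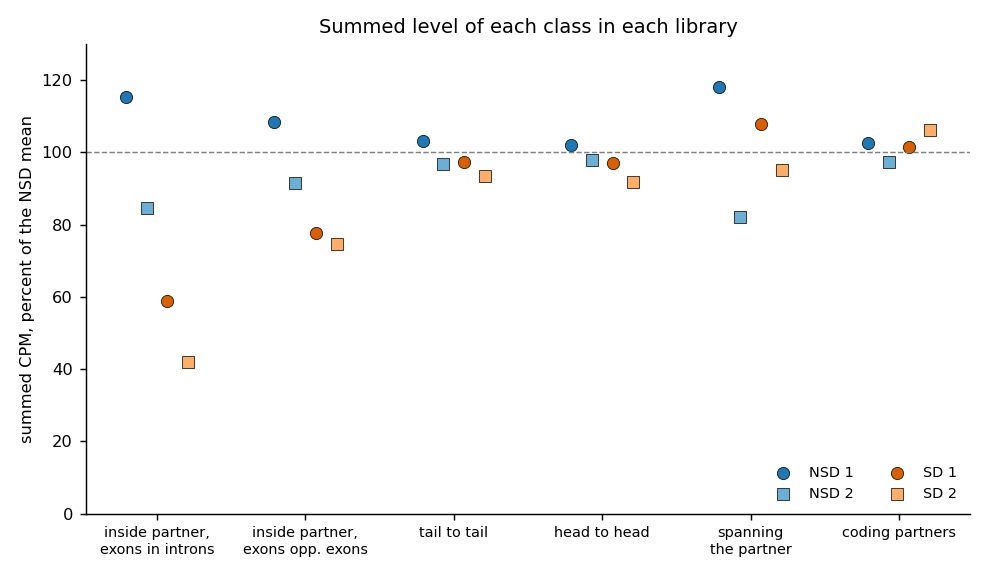
Summed CPM of all members of each class, and of their coding partners, in each library as a percentage of the mean of the 2 NSD libraries (vertical axis from 0). Intronic members stand at 58.8% and 42.1% in SD 1 and SD 2, while head to head members stand at 97.0% and 91.8%.

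Other noncoding classes of the table also had medians below 0. The 1663 tested genes of biotype TEC, short models awaiting experimental evidence, had a median of -1.51 on the log2 scale, and 307 were called lower. The 242 lncRNAs that overlap a coding gene on the same strand had a median of -1.16 and 36 called lower, and the 1033 lncRNAs that overlap no coding gene had a median of -0.20 and 28 called lower, while their summed level in SD 1 and SD 2 was 120.2% and 109.1% of the NSD mean. TEC genes took 0.274% and 0.210% of the counts in NSD and 0.157% and 0.118% in SD, an order of libraries shared by the RNAs known from the nucleus given above. The part of nuclear RNA in the lower values of members was not tested. The kit marks strand, but whether the counting used strand is not given in the sources used here, and if it did not, reads of a member and of the partner at the same bases cannot be told apart.

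The 41 members called lower had fitted log2 fold changes from -3.50 to -1.28 with a median of -2.0, and adjusted p-values between 0.0328 and 0.0499 by edgeR's quasi-likelihood test. In all 41 the SD libraries lay under the NSD libraries without overlap, NSD 1 was the highest library in 39 and SD 2 the lowest in 36. Of these 41, 39 averaged under 5 CPM. All 41 were also called lower with the block, by DESeq2, and without SD 1 or SD 2, while 19 of the 41 remained without NSD 2 and 3 without NSD 1.

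A330023F24Rik was the most abundant of them, and the only member called lower whose partner was called as well. It lies on chromosome 1 (194658683 to 194720212, plus strand) tail to tail with Cd46, a membrane regulator of complement, and 1079 of its exon bases face coding exons. Its level was 39.6 CPM in NSD 1, 24.2 CPM in NSD 2, 15.5 CPM in SD 1 and 10.8 CPM in SD 2. The SD libraries did not overlap the NSD libraries, and the mean was 31.9 ± 10.9 CPM (s.d. over libraries, n = 2) in NSD against 13.1 ± 3.27 CPM in SD. The log2 fold change was -1.28 with a standard error of 0.23 (edgeR adjusted p = 0.0385), and that of Cd46 was -1.43 (edgeR adjusted p = 0.0374). The ratio of A330023F24Rik to Cd46 changed by 0.18 on the log2 scale and did not pass the test (limma adjusted p = 0.674). Per kilobase of exon A330023F24Rik stood at 390% of the level of Cd46.

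The exons of A330023F24Rik hold the hairpins of Mir29b-2 and Mir29c, which are shown because this host RNA was called lower. The mature 3p sequences, from RefSeq with its GRCm38.p6 annotation and matched to GRCm39 by hairpin sequence, share the seed (bases 2 to 8, in capitals).
mmu-miR-29b-3p: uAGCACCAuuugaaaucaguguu
mmu-miR-29c-3p: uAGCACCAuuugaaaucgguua
miR-29 is known for targeting collagen and DNA methyltransferase transcripts. The count of the host gene is not a measure of mature miRNA, which these libraries did not capture as such.

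Zfhx2os lies tail to tail with Zfhx2, a zinc finger homeobox transcription factor, on chromosome 14. It was at 10 CPM in NSD 1, 6.05 CPM in NSD 2, 3.78 CPM in SD 1 and 2.68 CPM in SD 2 (log2 fold change -1.32 ± 0.26 SE, edgeR adjusted p = 0.0403). Zfhx2 itself was at 0.19 (edgeR adjusted p = 0.24), and the ratio of the pair fell by 1.48 on the log2 scale (limma adjusted p = 0.017).

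Srrm4os lies tail to tail with Srrm4, the regulator of neuronal microexon splicing. It was at 4.16 and 2.43 CPM in NSD and at 1.42 and 1.00 CPM in SD (log2 fold change -1.45 ± 0.31 SE, edgeR adjusted p = 0.048). Srrm4 was at 0.21 (edgeR adjusted p = 0.13).

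4930488L21Rik, head to head with the G protein gene Gnao1, was at 5.40 and 3.93 CPM in NSD and 2.09 and 1.46 CPM in SD (log2 fold change -1.39, edgeR adjusted p = 0.0374). Gm26703, head to head with Sparcl1, which encodes the synapse-organising matrix protein hevin, was at 2.13 and 2.50 CPM in NSD and 1.06 and 0.783 CPM in SD (log2 fold change -1.33, edgeR adjusted p = 0.0423). They were the 2 head to head members called lower, and in each the SD libraries lay below the NSD libraries.

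Gm48239 is an intronic member in Cadps, a priming factor for dense-core vesicles, and starts 448494 bases from the Cadps start. Its level was 5.31 CPM in NSD 1, 3.83 CPM in NSD 2, 1.46 CPM in SD 1 and 0.862 CPM in SD 2. The log2 fold change was -1.98 ± 0.29 (SE; edgeR adjusted p = 0.0328), and Cadps was at -0.07 (edgeR adjusted p = 0.70). The ratio of Gm48239 to Cadps fell by 1.93 on the log2 scale (limma adjusted p = 0.0131).

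C630031E19Rik is an intronic member in Myt1l, a transcription factor that holds neuronal identity. It was at 2.91 and 2.20 CPM in NSD and 0.957 and 0.862 CPM in SD (log2 fold change -1.49, edgeR adjusted p = 0.0374). Gm15594 lies inside Cttnbp2, a cortactin-binding protein of dendritic spines, with 547 of its exon bases opposite coding exons, and was at 3.69 and 2.18 CPM in NSD and 1.15 and 0.608 CPM in SD (log2 fold change -1.74, edgeR adjusted p = 0.0476). Without NSD 1, the calls of A330023F24Rik and Gm48239 remained and those of the other 6 members just described were lost. Without NSD 2, only Gm26703 of these 8 lost its call.

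The 5 members with the largest falls all lay inside a partner. 4930545L23Rik, an intronic member in the phospholipase C gene Plcb1, was at 0.639 and 0.350 CPM in NSD and at 0.0387 and 0.0476 CPM in SD (log2 fold change -3.50 ± 0.57 SE, edgeR adjusted p = 0.0363). Gm49886 in Fance, a gene of the Fanconi anaemia DNA repair pathway, was at -3.13 (edgeR adjusted p = 0.0385). Gm10097 in Syne1, which encodes the nuclear envelope protein nesprin-1, was at -2.91 (edgeR adjusted p = 0.0486). Gm15342 in the bromodomain gene Brwd1 was at -2.81 (edgeR adjusted p = 0.0405). These 4 were under 1 CPM in every library, so few counts stand behind each SD value. All 4 lost their call without NSD 1, and Gm10097 and Gm15342 also without NSD 2.

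4921534H16Rik, an intronic member in Clstn2, which encodes the synaptic adhesion protein calsyntenin 2, had the most counts among the 5. It was at 2.81 CPM in NSD 1, 2.11 CPM in NSD 2, 0.420 CPM in SD 1 and 0.323 CPM in SD 2. The fall was -2.73 ± 0.30 (SE) on the log2 scale (edgeR adjusted p = 0.0328), and Clstn2 was at 0.10 (edgeR adjusted p = 0.508). This member and Gm48239 kept their calls when no minimum count was set.

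**Figure D3:**
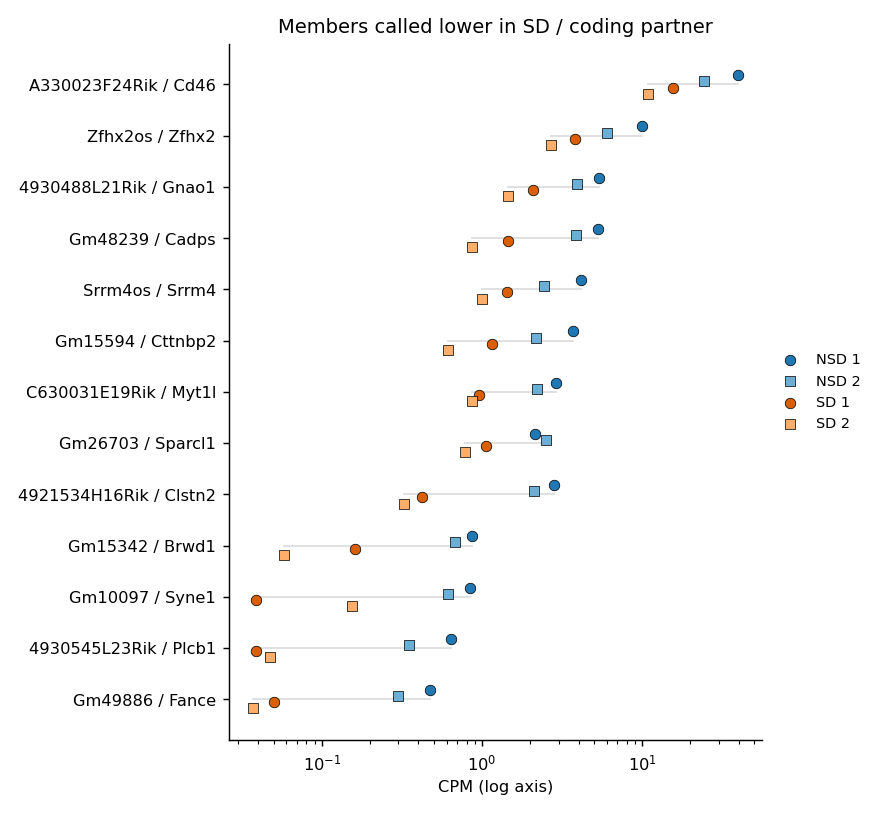
CPM (log axis) of the 13 members called lower that had the highest levels or the largest falls, each with its partner after the slash, in the 4 libraries (blue NSD, orange SD). Both SD libraries lie left of both NSD libraries in every row, from 39.6 against 10.8 CPM for A330023F24Rik to values under 0.1 CPM in SD for the rarest.

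Only a single member was called higher, a gene without a symbol (ENSMUSG00000117901) of 953 bases in an intron of Macrod1, which encodes an ADP-ribosylhydrolase, on chromosome 19 (7064834 to 7065786, minus strand). It was at 7.81 CPM in NSD 1, 9.07 CPM in NSD 2, 12.5 CPM in SD 1 and 12.8 CPM in SD 2, so that both SD libraries stood above both NSD libraries. The log2 fold change was 0.58 ± 0.11 (SE; edgeR adjusted p = 0.0397). Macrod1 was at -0.18 (edgeR adjusted p = 0.769). The call was lost without NSD 1 (0.51), without a minimum count and with filterByExpr, and 19 members were higher at an unadjusted p under 0.05 in the main test.

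Of the 8 most abundant members, 7 did not pass the test and A330023F24Rik did. B230334C09Rik, tail to tail with the leucine-rich repeat gene Lrrc40, was the highest at 467, 464, 490 and 498 CPM in NSD 1, NSD 2, SD 1 and SD 2 (log2 fold change 0.09, edgeR adjusted p = 0.66), and per kilobase of exon it stood far above Lrrc40. 4933431E20Rik, head to head with the glutathione transferase gene Gstm5, was at 83.8, 81.6, 93.6 and 86.4 CPM. 6330403L08Rik, head to head with the growth factor gene Pdgfa, was at 50.9, 51.1, 50.8 and 49.5 CPM. Both SD libraries stood slightly above both NSD libraries for B230334C09Rik and 4933431E20Rik, and slightly below them for 6330403L08Rik.

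Gm10419, head to head with Gm42517, was at 50.6, 47.2, 48.0 and 44.1 CPM, and Gm26782, head to head with the telomerase-associated gene Tep1, was at 23.3, 22.8, 27.5 and 23.6 CPM. Dlx6os1 faces Dlx6, a homeobox gene of forebrain interneurons, and was at 29.5, 26.7, 33.1 and 27.3 CPM (log2 fold change 0.10, edgeR adjusted p = 0.677). None of these 3 passed the test. Over all 27 tested members above 10 CPM the median log2 fold change was 0.09, with 1 called higher and 1 called lower, against 0.77% and 2.33% of all genes.

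**Figure D4:**
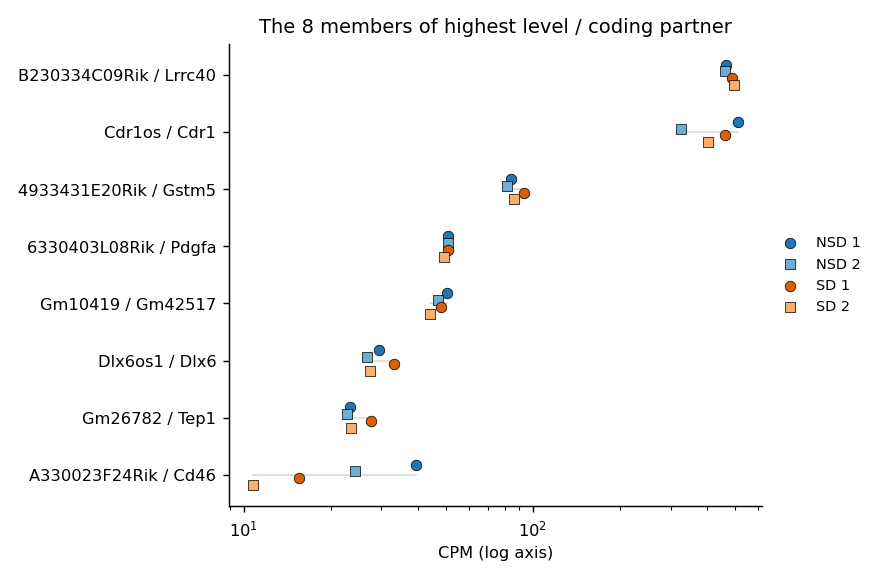
CPM (log axis) of the 8 members of highest mean level, each with its partner after the slash, in the 4 libraries (blue NSD, orange SD). The points of 7 members lie close together or overlap between groups, while A330023F24Rik runs from 39.6 CPM in NSD 1 to 10.8 CPM in SD 2.

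Cdr1os was the second most abundant member. It spans Cdr1 on the X chromosome (60159984 to 60247391, plus strand), and its strand is the one from which the circular RNA ciRS-7, a known partner of miR-7, is made. Its level was 513 CPM in NSD 1, 326 CPM in NSD 2, 461 CPM in SD 1 and 404 CPM in SD 2, so the groups overlapped and the log2 fold change was 0.04 ± 0.18 (SE; edgeR adjusted p = 0.938). Cdr1 was at 0.86 (edgeR adjusted p = 0.139, and 0.00819 with the block, where it was called higher), and the ratio of Cdr1os to Cdr1 fell by 0.88 on the log2 scale (limma adjusted p = 0.0239). All 1554 bases of Cdr1 face exon bases of Cdr1os, and a count per gene does not separate the circular from the linear RNA.

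The letters GTCTTCC, which pair with the seed of miR-7, occur 125 times in the 24549 exon bases of Cdr1os, and 79 of these matches face the Cdr1 span. Among the 2121 members with at least 200 exon bases the median was 0 matches, and the next highest was 7 in Gm47096. The mature miR-7a-5p (RefSeq, GRCm38.p6, seed in capitals) and the first, middle and last of the 79 matches (GRCm39, plus strand, match in capitals, at chrX:60227600-60227623, chrX:60228375-60228398 and chrX:60229131-60229154) show the repeat.
mmu-miR-7a-5p: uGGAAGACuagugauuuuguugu
First match: cttccaggaaatcaacGTCTTCCc
Middle match: cttcccgaaaatccaaGTCTTCCc
Last match: cttcccagaaacccatGTCTTCCt

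Hairpins of known miRNAs lay within the span of 15 members on the same strand, which were picked out after their values had been seen. Of the 12 tested, 1 was called lower by edgeR (A330023F24Rik), against 2.33% of all genes, and 4 were lower with the block, against 8.47%. Of the 12, 8 lay below 0, and the median over the 12 was -0.33. The fourth with the block, beside A330023F24Rik, Dnm3os and Dleu2, was Tmcc3os at -1.97 (edgeR adjusted p = 0.0721, and 0.0144 with the block, and DESeq2 adjusted p = 0.0156), which was called lower at -2.62 without SD 1. 1700016P03Rik, tail to tail with the hydrolase gene Ovca2, holds Mir132 and Mir212 in its exons, a pair known for CREB-dependent transcription in active neurons. It was at 0.0362 CPM in NSD 1, 0.0764 CPM in NSD 2, 0.349 CPM in SD 1 and 0.148 CPM in SD 2. Both SD libraries were above both NSD libraries, with a log2 fold change of 2.13 ± 0.67 (SE) that did not pass the test (edgeR adjusted p = 0.125, and 0.0661 with the block), although it was called higher at 2.64 without SD 2. The mature 3p sequences (RefSeq, GRCm38.p6, seed in capitals) share their seed.
mmu-miR-132-3p: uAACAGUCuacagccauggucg
mmu-miR-212-3p: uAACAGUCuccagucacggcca

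Dnm3os, an intronic member in the dynamin gene Dnm3, holds Mir199a-2 and Mir214. It was at 2.65 and 1.93 CPM in NSD and at 0.841 and 0.0846 CPM in SD, so the SD libraries were lower but far apart. The log2 fold change was -2.31 ± 0.76 (SE; edgeR adjusted p = 0.138, and 0.00194 with the block, and DESeq2 adjusted p = 0.354), and Dnm3os was called lower when SD 1 was left out (-4.75) and when SD 2 was left out (-1.43). Dleu2, which holds Mir16-1 in an intron and faces Kcnrg, was at 5.59 and 4.89 CPM in NSD and 3.05 and 1.76 CPM in SD (log2 fold change -1.12, edgeR adjusted p = 0.0562, and 7.03e-04 with the block, and DESeq2 adjusted p = 9.24e-04), and it was called lower when SD 1 (-1.57) or SD 2 (-0.77) was left out.

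Symbols that name an antisense transcript (ending in os, as or ot, with or without a number) were carried by 104 tested members. Of these 7 were called lower and 0 higher by edgeR (1 higher at an unadjusted p under 0.05, 0 by DESeq2), 25 lower and 0 higher with the block, and their median log2 fold change was -0.48. Of all genes 2.33% were called lower, and 8.47% with the block. Besides Cdr1os and Dlx6os1, the most abundant were Grin1os, Rab10os, Brip1os and Dlx1as. Grin1os, inside the gene of the obligatory NMDA receptor subunit, was at 21.0 and 18.2 CPM in NSD and 13.0 and 17.2 CPM in SD (log2 fold change -0.37, edgeR adjusted p = 0.181, and 0.0411 with the block). The SD libraries lay below the NSD libraries, with SD 2 close to NSD 2, and the member was called lower at -0.58 without SD 2.

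Rab10os, tail to tail with the small GTPase gene Rab10, was at 17.2, 12.2, 21.0 and 12.7 CPM in NSD 1, NSD 2, SD 1 and SD 2, with the 2 libraries of batch 1 above those of batch 2, and it was called higher at 0.53 without SD 2. Brip1os, which spans the Integrator subunit gene Ints2, was at 8.90, 11, 11.3 and 11.6 CPM. Dlx1as was at 5.42 and 5.70 CPM in NSD and at 6.17 and 7.49 CPM in SD (log2 fold change 0.30, edgeR adjusted p = 0.319), beside -0.67 for Metap1d (edgeR adjusted p = 0.0934, and 0.01 with the block, where it was called lower), a methionine aminopeptidase gene whose 3′ end it overlaps.

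The coding partners did not share the lower values of the members. Of the 1864 partners tested, 14 were called lower and 23 higher, which is 0.751% lower and 1.23% higher against the 2.33% and 0.77% of all genes given above, and their median log2 fold change was 0.03. With the block, 70 partners were called lower (3.76%, against 8.47% of all genes) and 87 higher (4.67%, against 2.99%). Among the 15551 tested coding genes, which are the closer comparison, 0.54% were called lower and 0.952% higher, with a median of 0.02. With the block these shares of coding genes were 3.29% and 3.77%, so partners were called slightly more often in both directions. The partners of the 41 members called lower ranged from -0.27 to 0.29 apart from Cd46, and 21 of these 41 pairs had a partner above 0. Over the 1293 pairs with both genes tested, the log2 fold changes of member and partner had a Pearson r of 0.011 and a Spearman rho of 0.030, a description over genes that share the same 4 libraries.

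**Figure D5:**
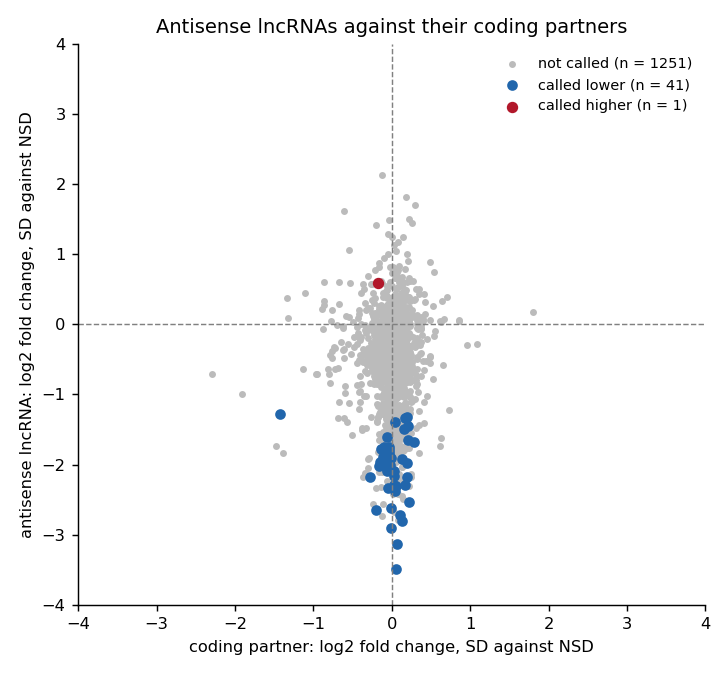
Log2 fold change of SD against NSD of the coding partner (horizontal axis) and of the antisense lncRNA (vertical axis) for 1293 pairs, with the 41 members called lower in blue and the 1 called higher in red. The cloud is tall and narrow, with the blue points at -1.28 or lower on the vertical axis and near 0 on the horizontal axis, and Cd46 apart at -1.43.

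Of the tested members, 27 faced a partner that was itself called, 16 of them a partner called higher and 11 a partner called lower. Their own values lay below 0 in 13 of the 16 and in 8 of the 11, with medians of -0.44 and -0.48, close to the 75.6% below 0 and the median of -0.42 over all tested members. Slc43a2, an amino acid transporter gene, was called higher at 0.37 (edgeR adjusted p = 0.0385), while its head to head member Gm45606 was at 18.7, 16.2, 17.3 and 17.4 CPM (log2 fold change -0.01). Sox8, a glial transcription factor gene, was called higher at 0.38 (edgeR adjusted p = 0.04), and Cerox1, known as a regulator of mitochondrial complex I, was at 10, 10, 9.86 and 9.32 CPM. Neither member passed the test.

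Lratd2 was called higher at 0.63 (edgeR adjusted p = 0.0451), and 9930014A18Rik inside it was at 10.9, 11.4, 10.7 and 12.3 CPM (log2 fold change 0.04), so the ratio of the pair fell by 0.61 on the log2 scale (limma adjusted p = 0.0464). The histone methyltransferase gene Setd7 was at 0.36 (edgeR adjusted p = 0.0482), and its head to head member 5031434O11Rik was at -0.42 (edgeR adjusted p = 0.365). Pcdhga9, a gamma-protocadherin whose constant exons are shared with the rest of its cluster, was at -0.45 (edgeR adjusted p = 0.0374). Gm26672 inside it was at 7.36 and 5.62 CPM in NSD and 4.18 and 4.64 CPM in SD (log2 fold change -0.56, edgeR adjusted p = 0.114, and 0.0243 with the block). In total 5580 exon bases of Gm26672 were counted opposite coding exons, but 0 opposite those of Pcdhga9.

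The ratio of member to partner within each library does not depend on the library total. Of 1293 member pairs, 59 had a ratio called lower in SD and 1 higher by limma, against 3.56% and 0.573% of all 4013 opposite-strand pairs of the table. With the block the counts were 180 and 9, against 10% and 2.07% of all pairs. The median change was -0.43 over member pairs and 0.01 over the 1542 pairs of coding genes, of which 11 were called lower and 12 higher. The 192 intronic pairs had a median of -1.38 and 29 called lower, the 557 pairs inside a partner 50 called lower, the 434 head to head pairs 2 and the 264 tail to tail pairs 6. The number of calls moved to 0 without NSD 1 (114 lower at an unadjusted p under 0.05) and without NSD 2 (234), and to 204 without SD 1. It was also 0 with 1 prior variance for all pairs (311 lower at an unadjusted p under 0.05).

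The 3 largest falls of the ratio were 4930545L23Rik to Plcb1 at -3.44 (limma adjusted p = 0.0174), Gm10097 to Syne1 at -3.17 (limma adjusted p = 0.0226) and Gm49886 to Fance at -3.12 (limma adjusted p = 0.0224). In the other direction, Dlx1as to Metap1d was the only ratio called higher, at 0.97 (limma adjusted p = 0.0415). This member and its partner share 952 exon bases on opposite strands, while 4203 exon bases of Dlx1as face coding exons when all coding genes are counted. With the partner of highest count in place of longest overlap, 0 ratios were called higher. Of all members, 203 face more than 1 coding gene.

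Members that face activity-induced genes were few. Of 5 tested, 0 passed the edgeR test, 2 were lower at an unadjusted p under 0.05 and with the block, 1 by DESeq2 (8.47% of all genes were lower with the block). Of the 5, 3 lay below 0, and the median was -0.94, beside 0.24 for their partners. Gm6225, head to head with the cAMP-responsive factor gene Crem, was at 1.92 and 1.16 CPM in NSD and 0.791 and 0.640 CPM in SD (log2 fold change -1.11, edgeR adjusted p = 0.115, and 0.0204 with the block), and was called lower at -1.27 without SD 1. Junos, head to head with Jun, was at 0.645 and 0.376 CPM in NSD and 0.282 and 0.249 CPM in SD (edgeR adjusted p = 0.311). Gm50394, head to head with the MAP kinase phosphatase gene Dusp5, was at 0.241, 0.165, 0.266 and 0.270 CPM, while Dusp5 was called higher at 0.71 (edgeR adjusted p = 0.0328).

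Of 12 tested members that face splicing genes, 0 passed the edgeR test, 3 were lower with the block, 2 by DESeq2 and 4 before adjustment at p under 0.05, and 11 lay below 0, as did 75.6% of all tested members, with a median of -0.55, while 2 of their 11 partners were called lower. Of all genes 2.33% were called lower, and 8.47% with the block. E130317F20Rik, head to head with Ptbp1, the splicing repressor of non-neuronal cells, was at 7.39, 7.5, 6.67 and 7.24 CPM. Gm12992, tail to tail with Srsf4, was at 2.91, 2.15, 2.09 and 1.77 CPM. Gm3227, an intronic member in Celf4, was at 2.42 and 1.32 CPM in NSD and 0.813 and 0.307 CPM in SD (log2 fold change -1.74, edgeR adjusted p = 0.0918, and 9.59e-04 with the block), beside 0.19 for Celf4, and was called lower when SD 1 (-2.61) or SD 2 (-1.19) was left out. Celf4, an RNA-binding protein of excitatory neurons, faced a further tested member.

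Ion channel and receptor genes faced 49 tested members, of which 1 was called lower (2.33% of all genes were) and 11 were lower with the block (8.47% of all genes), and the median was -0.28. The call was Gm32014, tail to tail with the cation channel gene Trpc6, at -1.91 (edgeR adjusted p = 0.0385), and it was lost when NSD 1 (-1.83) or NSD 2 (-1.97) was left out. Among the most abundant of the list, beside Grin1os, were Gm9899, head to head with the leak potassium channel gene Kcnk3, at 11.6 and 12.6 CPM in NSD and 14 and 13.9 CPM in SD (edgeR adjusted p = 0.294), and Gm41505, tail to tail with the inwardly rectifying channel gene Kcnj6, at 6.16, 6.26, 6.02 and 5.93 CPM. Neither passed the test.

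Synaptic genes faced 23 tested members, of which 4 were called lower and 0 higher by edgeR, against 2.33% and 0.77% of all genes, with a median of -0.45, beside 0.10 for the partners, of which 0 were called by edgeR and 0 by DESeq2 (4 at an unadjusted p under 0.05). The 4 were Gm48239 in Cadps, 5031415H12Rik and Gm41609, both in Dlgap1 at -2.09 (edgeR adjusted p = 0.0406) and -1.61 (edgeR adjusted p = 0.0397), and Gm14372 in Shank2 at -1.98 (edgeR adjusted p = 0.0481). Dlgap1 and Shank2 encode scaffold proteins of the postsynaptic density. Without NSD 1 the call of Gm48239 alone remained, and without NSD 2 those of Gm41609 and Gm14372 were lost. With the block 8 were called lower, against 8.47% of all genes, and A830092H15Rik in the adhesion gene Nlgn1 was called higher at 0.84 (edgeR adjusted p = 0.0257, against 0.194 without the block) and also without NSD 2 at 1.31.

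The most abundant members of this list were Gm14703, tail to tail with the vesicle protein gene Syp, at 9.40, 9.15, 12.9 and 7.62 CPM, Gm15609 inside the scaffold gene Shank3, at 4.32, 3.42, 2.67 and 3.07 CPM, and Gm4409, head to head with the adhesion gene Lrrtm4, at 1.86, 4.80, 2.96 and 3.12 CPM. None of the 3 passed the test, and the groups overlapped for Gm14703 and Gm4409.

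All 5 tested members that face circadian clock genes lay below 0, as did 75.6% of all tested members, with a median of -1.20, beside 0.11 for their partners. By edgeR 0 passed the test, 3 were lower at an unadjusted p under 0.05, and 2 were lower with the block, against 8.47% of all genes, and 2 by DESeq2. Gm16059 inside the casein kinase gene Csnk1e was at 1.49 and 0.885 CPM in NSD and 0.470 and 0.561 CPM in SD (log2 fold change -1.20, edgeR adjusted p = 0.114, and 0.0385 with the block). Gm28192 inside Csnk1d, whose 778 exon bases all face coding exons, was at 0.712 and 0.433 CPM in NSD and 0.160 and 0.153 CPM in SD (log2 fold change -1.86, edgeR adjusted p = 0.0705, and 0.0188 with the block), and was called lower at -1.90 without SD 1. D930015M05Rik inside the repressor gene Cry2 was at -1.24 (edgeR adjusted p = 0.239).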

How the data were processed

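fosTRAP-seq libraries (NSD and SD, 2 each) were grouped by the labels, and the study describes each library as a pool of mice. The authors trimmed the reads, aligned them to mm39 with STAR and ran the expectation-maximization model of Partek on Ensembl genes. The deposited values are its estimated counts, not normalized. This model splits reads shared by overlapping genes, and 49.0% of members had a value that is not whole, against 55.5% of all genes. Depth was 153511705 to 195910235 counts. Counting error grows as members get rarer, and 977 of the 1322 tested averaged under 1 CPM. Precision is also limited by 2 libraries per group.

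Estimated counts were rounded and genes with more than 5 in every library were fitted with edgeR 4.0.16 in R 4.3.3 (TMM scaling, quasi-likelihood test, group as the only term, Benjamini-Hochberg adjustment over all 22338 genes). A call required p below 0.05 after adjustment together with a change of more than 1.2-fold. CPM use the TMM factors. The ratio of member to partner, log2 with a pseudocount of 0.5, was tested with limma 3.58.1 over all opposite-strand pairs with both genes over 5 counts, with a variance prior that follows the count of the rarer gene. Fits were tested on simulated counts. The variance prior that follows the count was taken because 1 prior variance for all pairs recovered no changed pair there. The plan of the ratio test did not name it. Exons came from GENCODE vM39 on the same build, clipped to the spans in the table, and levels per kilobase use these exons. DESeq2 1.42.0, other scalings and filters, the block and leaving out each library were the alternatives, and 1 prior variance for all pairs was added after seeing the data. Leaving out a library leaves a group with 1, assumed to vary like the other group.

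The labels' batch number pairs NSD and SD libraries. Deviations of same-numbered libraries had a correlation of 0.178 over all genes and 0.103 over members. The members and lists were chosen with earlier results of these data known. Named members were every call higher, the 8 of highest level and 5 of largest fall among calls lower without overlap between groups, the 8 of highest level, the 6 of highest level with an antisense symbol, the 6 of highest level with a called partner, 3 of highest level per partner list and 3 called ratios per direction. Called members in the lists and miRNA hosts were added after their values were seen. A prefix of the synaptic list also matches Lrrc40, which was left out of it.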

Additional observations from a re-analysis of the deposited data

How the results depend on the processing

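The median log2 fold change of members stayed between -0.55 and -0.28 in the alternatives that kept all members. It was -1.25 over the members with no exon base opposite a coding exon. Of all 22338 genes, 2.33% were called lower in the main test and 8.47% with the block, against 3.10% and 14.5% of tested members. DESeq2 called 1294 of all 22338 genes lower. When single libraries were left out, the number called lower moved among all genes as well. The 41 members called lower became 192 with the batch number as a replicate block, 127 by DESeq2, 2 without a minimum count, 0 with filterByExpr, 20 over members with and 21 over members without exon bases opposite a coding exon, and 3 to 196 with each library left out. The 1 called higher became 6 with the block, 3 by DESeq2, 2 with DESeq2 size factors, 0 without a minimum count, with filterByExpr, over a fold change of 1.5 and over members with exon bases opposite a coding exon, and 0 to 4 with each library left out.

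Of the partners, the 23 called higher became 87 with the block, 85 by DESeq2, 15 with TMM factors from protein-coding genes, 7 without a minimum count, 0 with filterByExpr (218 at an unadjusted p under 0.05), 5 over a fold change of 1.5 and 18 to 41 with each library left out. The 14 called lower became 70 with the block, 38 by DESeq2, 2 without a minimum count, 0 with filterByExpr (107 at an unadjusted p under 0.05), 5 over a fold change of 1.5 and 6 to 57 with each library left out.

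Of the ratios, the 59 called lower became 180 with the block, 29 with at least 50 counts in every library, 0 with 1 prior variance for all pairs (311 at an unadjusted p under 0.05) and 0 to 204 with each library left out. The 1 called higher became 9 with the block, 0 with 1 prior variance (32 at an unadjusted p under 0.05), 0 with the partner of highest count and 0 to 8 with each library left out. The cause of these moves was not tested, apart from the smaller sets by construction.

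Of the members named, several that did not pass the test changed sign. Gm45606 was at 0.01 by DESeq2 and with its size factors and at 0.02 without a minimum count, 6330403L08Rik at 0.00 without a minimum count and Gm4409 at 0.01 with the block. With each library left out, Cdr1os ran from -0.25 to 0.44, 6330403L08Rik from -0.04 to 0.00, Dlx6os1 from -0.04 to 0.25, Gm45606 from -0.10 to 0.13, Rab10os from -0.20 to 0.53, 9930014A18Rik from -0.05 to 0.14, Gm14703 from -0.28 to 0.48 and Gm4409 from -0.63 to 0.71.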
